A study of Mus musculus with 12 samples.

Results

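Messenger RNA of 43 genes of glutathione metabolism and antioxidant defence was compared between Dnmt3a knockout (KO) and Dnmt3a wild-type (WT) lung tumours of the mouse. The genes were chosen by name from a list of 44: every probe whose gene name in the array files was on the list was taken, which gave 66 probes of 43 genes among 41174 probes and 20596 testable genes in all. Me1, the remaining gene, had no probe under that name, and its value from a probe carrying the older name Mod1 is given apart. All 43 genes passed the filter on dim probes, and all except Sod3 were well above background on 12 of 12 arrays for both tumours. Sod3 was well above background on 9 arrays for each.

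All animals were mice of C57/129 strain with a K-ras LSL-G12D allele, a mutant K-ras that stays silent until Cre recombinase removes its stop. Adenoviral Cre was given into the airways at 6 to 12 weeks of age. It switched on K-ras G12D in the infected lung cells of both groups, and in the KO group those cells also lost a conditional Dnmt3a, an enzyme that methylates DNA. RNA of a KO and of a WT tumour was hybridised together on each of 12 two-colour Agilent arrays, and the KO dye was Cy5 on 6 of them and Cy3 on the rest. Only infected cells recombine, so the rest of each tumour, including vessels and other stroma, keeps its alleles. The labels give 4 combinations of age and sex, called pairs A to D here, in an age unit that they do not state. Pair A (replicates 1 to 4) had KO at age 47.7 and WT at 42.6, and pair B (replicates 5 to 8) had 27 and 41.3. Pair C (replicates 9 and 10) had 27 and 47.6, and pair D (replicates 11 and 12) had 29.1 and 37.3. The WT animal of pair C was female and all others were male. The labels call every array a biological replicate but leave out which animals and tumours each array of a pair was made from, so p-values measure the spread between these arrays. Pairs B and C give the same KO age and could share an animal.

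Pair A lay on slide 1, pair B on slide 2, and pairs C and D on slide 3, which was scanned on another day. Pair C held KO in Cy5 on both arrays and pair D in Cy3 on both, so dye, sexes and ages cannot be told apart within slide 3. Probes well above background made up 81.64% to 89.64% of the total on slides 1 and 2 and 58.99% to 72.17% on slide 3. Dnmt3a itself had a KO over WT log2 ratio between -0.41 and -0.06 on the 12 arrays, with a median of -0.17, and was below 0 on 12 of 12 (-0.21 ± 0.046 SE, limma adjusted p = 0.0213). The sources used here do not say which part of the gene was deleted, nor whether the probe lies in it, so the value checks the labels only in part. The 6 general markers of lung epithelium and the 10 of alveolar type 2 cells were well above background on every array in both tumours.

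Glutathione is a small peptide that cells use as a store of reducing power. Glutamate-cysteine ligase and glutathione synthetase make it, glutathione peroxidases spend it on hydrogen peroxide and lipid peroxides, and glutathione reductase restores it with NADPH, much of it from the pentose phosphate pathway. Glutathione transferases attach it to reactive chemicals, in the lung above all in airway and alveolar epithelium. The transcription factor Nrf2 (gene Nfe2l2), held in check by Keap1, induces many of these genes through a short DNA motif, the antioxidant response element.

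The upstream sequences of 5 members are shown because they include both called directions, the largest log2 ratio of the list and the motif that several members have in common. They are the 250 bases before the annotated start site, from RefSeq on build GRCm38.p6, written 5′ to 3′ on the gene's strand. Capitals mark each match to TGACNNNGC, the core of the antioxidant response element, searched on both strands. Prdx1 rose, Gpx3 fell, and Gclm, Gsta3 and Gsto1 were not called.
Prdx1, chr4:116685349-116685598, plus strand: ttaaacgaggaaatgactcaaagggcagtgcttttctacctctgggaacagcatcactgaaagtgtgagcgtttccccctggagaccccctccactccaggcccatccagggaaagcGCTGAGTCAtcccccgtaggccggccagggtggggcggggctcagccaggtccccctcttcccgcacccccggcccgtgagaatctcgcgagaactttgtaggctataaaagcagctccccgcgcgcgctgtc
Gclm, chr3:122245307-122245556, plus strand: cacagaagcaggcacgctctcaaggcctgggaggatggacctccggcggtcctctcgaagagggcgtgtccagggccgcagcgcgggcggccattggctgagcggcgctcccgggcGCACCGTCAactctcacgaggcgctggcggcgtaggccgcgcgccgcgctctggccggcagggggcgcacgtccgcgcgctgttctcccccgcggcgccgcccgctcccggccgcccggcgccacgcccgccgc
Gsta3, chr1:21240335-21240584, plus strand: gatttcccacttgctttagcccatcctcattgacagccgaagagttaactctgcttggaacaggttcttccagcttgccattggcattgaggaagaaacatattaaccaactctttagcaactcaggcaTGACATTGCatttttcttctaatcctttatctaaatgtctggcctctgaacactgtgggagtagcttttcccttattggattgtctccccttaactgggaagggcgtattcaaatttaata
Gpx3, chr11:54902604-54902853, plus strand: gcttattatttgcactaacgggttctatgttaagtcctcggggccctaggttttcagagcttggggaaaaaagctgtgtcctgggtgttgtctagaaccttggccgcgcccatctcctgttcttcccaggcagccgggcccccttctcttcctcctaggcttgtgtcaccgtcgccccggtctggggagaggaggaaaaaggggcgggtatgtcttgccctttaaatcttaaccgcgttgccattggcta
Gsto1, chr19:47854723-47854972, plus strand: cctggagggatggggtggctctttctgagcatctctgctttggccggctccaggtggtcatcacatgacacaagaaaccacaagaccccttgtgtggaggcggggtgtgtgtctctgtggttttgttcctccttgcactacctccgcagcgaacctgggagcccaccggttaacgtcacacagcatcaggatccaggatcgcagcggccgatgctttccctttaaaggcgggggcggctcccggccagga

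A promoter entry was found by symbol for 36 of the 43 members and for Me1, and 9 of these 37 genes had more than 1 start site, giving 49 windows. The core was present in 9 of the 49 windows (18.4%), each of a different gene, and in 10.2% of all 32851 windows of this length. Besides Prdx1, Gclm and Gsta3 it was in Gstm5, Mgst1, Nfe2l2, Sod1, G6pdx and Txnrd1. Of the 9 genes with a match, 6 had a ratio above 0 and 3 a ratio below 0, and 1 (Prdx1) was called. The match in Prdx1 overlaps a TGANTCA motif, the site of AP-1 factors, and that motif was in 5 of the member windows and in 6.75% of all windows. Windows of members held a median of 11 CpG dinucleotides, the letters that DNA methyltransferases act on, against a median of 6 over all windows. A match describes letters in these windows only, and methylation was not measured here.

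The comparison asked how mRNA in KO tumours differed from that in WT tumours. Ratios are log2 of KO over WT after within-array normalization, so -1 is a halving and 1 a doubling. A gene was called at a Benjamini-Hochberg adjusted p under 0.05 over all genes in limma. Of the 43 members, 4 fell (Gsr, Gpx3, Gpx4 and Sod2), 2 rose (Cat and Prdx1) and 37 were not called. In the same comparison 7.14% of all genes were called, 3.77% lower and 3.37% higher in KO. The median ratio was -0.21 over members and -0.01 over all genes, and 30 of 43 members against 10821 of 20596 genes were below 0. The median size of the ratio, whatever its sign, was 0.35 over members and 0.09 over all genes. All genes include dimmer probes, kept when well above background on as few as 6 arrays, and members and all genes were not matched for intensity. With only probes well above background in both dyes on all arrays, limma called 8 of 42 members and 1402 of 14678 genes. An unadjusted limma p under 0.05 was then found for 22 of these members and 25.7% of these genes. With arrays taken as independent, without the pair as a block, 14 of 43 members were called, 11 lower and 3 higher, beside 10.7% of all genes. In the fit with the block, an unadjusted limma p under 0.05 was found for 22 of 43 members (51.2%) and for 22.4% of all genes. With pair B left out, limma called 0 members. In that fit 19 of 43 members had an unadjusted p under 0.05, beside 19% of all genes. KO and WT levels overlapped between arrays for each of the 43 members, and the share of all genes that overlap was not computed. Calls and fitted ratios rest on ratios within arrays, and levels are given only as a description.

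**Figure D1:**
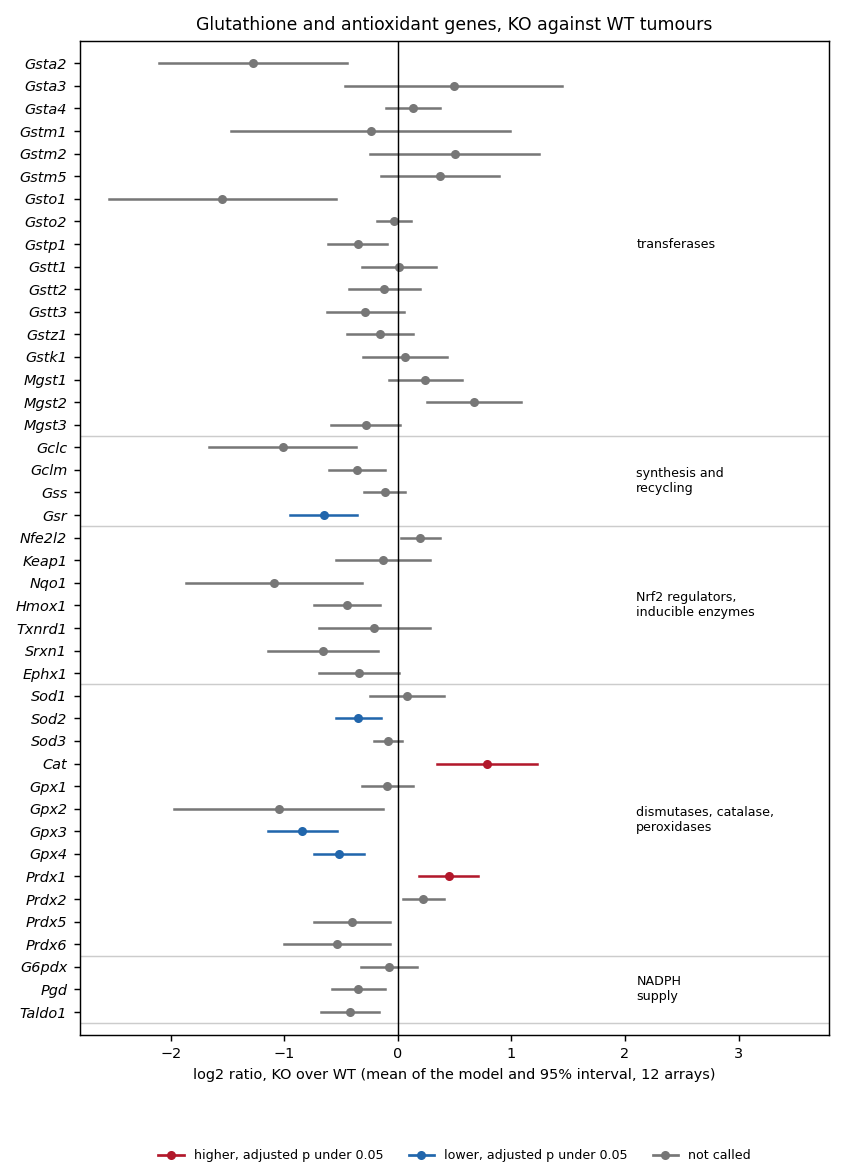
Mean log2 ratio of KO over WT (horizontal axis) with its 95% confidence interval for each of the 43 members, from the limma model over 12 arrays, grouped by role. Blue marks the 4 genes that fell, red the 2 that rose and grey the 37 not called; the widest intervals belong to transferases such as Gstm1 (-1.47 to 0.99) and Gsto1.

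Gsr was the called gene of glutathione synthesis and recycling. It encodes glutathione reductase, which turns oxidized glutathione back into its reduced form. Its log2 ratio ran from -1.60 to -0.06 with a median of -0.55, and it was below 0 on 12 of 12 arrays. The lowest arrays were replicates 4, 1 and 10, and those of pair D were the nearest to 0, at -0.16 and -0.06. The fitted ratio was -0.65 ± 0.135 (SE, n = 12 arrays; limma adjusted p = 0.0176), a 1.57-fold lower level in KO. All 3 probes of Gsr, on chromosome 8 of build mm7 with the one used here at chr8:32465796-32465855, were called when each probe was tested on its own (-0.65, -0.63 and -0.58), where 5.71% of 35561 probes were called. The probe giving -0.58, at chr8:32465775-32465834, overlaps the one used here, so these values are not independent. The call held with any single array left out but not with pair A, B or C left out (adjusted p = 0.0803, 0.0725 and 0.0797).

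Gclc, the catalytic subunit of glutamate-cysteine ligase and the rate-limiting step of glutathione synthesis, had ratios of opposite sign in pair D and in the other pairs. Its log2 ratios were -1.92, -1.43, -1.64 and -1.94 in pair A and -0.53, -1.63, -1.87 and -0.52 in pair B. They were -1.86 and -1.51 in pair C, and 0.79 and 1.44 in pair D. All 10 arrays of pairs A to C were thus below 0 and both arrays of pair D above it. Over all arrays the ratio was -1.02 ± 0.296 (limma adjusted p = 0.0607), and it passed the threshold with pair D left out (-1.47, adjusted p = 0.00427, range over its alternatives 0.00427 to 0.513) and without replicate 5, 11 or 12. A limma F test of differences between the 4 pairs gave an adjusted p of 0.135 for Gclc, the smallest of any member; 0 members and 0.347% of all genes passed that test, and 10 of 43 members and 12.3% of all genes had an unadjusted p under 0.05. In pair D, replicate 11 had the lowest median of 9 club cell markers of the 12 arrays (-3.47) and replicate 12 the lowest median of 10 alveolar type 2 markers (-1.21). The club cell median of replicate 12 (0.82) and the alveolar type 2 median of replicate 11 (-0.41) lay within the range of the other arrays. Replicate 11 was also lowest for ciliated cell (-3.52), endothelial (-1.36), and pericyte and smooth muscle markers (-0.97). Replicate 12 was also lowest for fibroblast (-1.53) and neutrophil markers (-1.25), and highest for ciliated cell markers (0.58). Neither array was lowest in the remaining lists. The part of these marker differences in the Gclc values was not tested.

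Gclm, the modifier subunit of the same ligase, was below 0 on 11 of 12 arrays, from -1.28 on replicate 10 to 0.43 on replicate 8. Its ratio of -0.36 ± 0.113 was not called (limma adjusted p = 0.0784). Gss, glutathione synthetase, ranged from -0.56 to 0.37 and was not called (-0.12 ± 0.082, limma adjusted p = 0.463). Of the 4 genes of this role, all had ratios below 0, with a median of -0.51, and 1 fell, beside 3.77% of all genes.

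**Figure D2:**
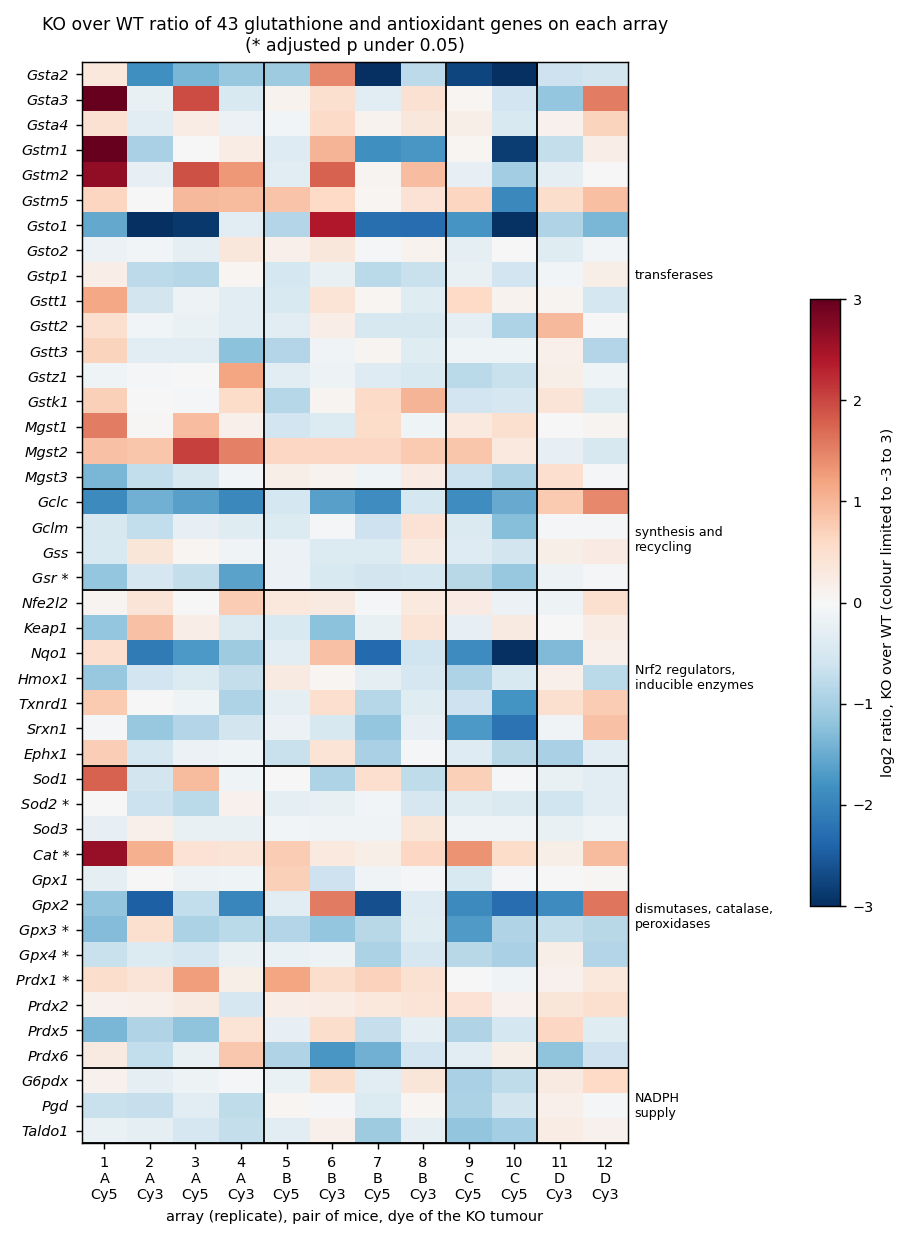
Log2 ratio of KO over WT of the 43 members (rows, grouped by role) on each of the 12 arrays (columns, with pair and dye of the KO tumour), blue below 0 and red above it. Gclc and Mgst2 change sign between pairs A to C and pair D, and Gsto1, Gsta2, Gpx2 and Nqo1 are above 0 on replicate 6.

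Superoxide dismutases, catalase and peroxidases held 5 of the 6 called members among 12 genes, with 3 lower and 2 higher and a median ratio of -0.22. Of all genes, 3.77% were called lower and 3.37% higher. Gpx3 encodes a glutathione peroxidase that cells secrete. Its log2 ratio ran from -1.70 on replicate 9 to 0.47 on replicate 2, with a median of -0.85. Replicate 2 was the only array above 0. The fitted ratio was -0.84 ± 0.14 (limma adjusted p = 0.00588), a 1.79-fold lower level, and pair means were -0.65, -0.81, -1.31 and -0.77 in A to D. Its probe lies at chr11:54866691-54866750 of build mm7. The call held with any single array left out, but without pair B the adjusted p was 0.0553.

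Gpx4 encodes the peroxidase that reduces lipid peroxides in membranes and protects cells from ferroptosis, a death driven by such peroxides. Its ratios ran from -0.98 on replicate 10 to 0.18 on replicate 11, with a median of -0.50 and 11 of 12 arrays below 0. It fell by 0.52 on the log2 scale (SE 0.1, limma adjusted p = 0.0131), 1.43-fold, and its median level was 14.99 in KO and 15.55 in WT in log2 intensity. Its probe lies at chr10:79836650-79836709 of build mm7. The call held with any single array left out and was lost without pair A, B or C (adjusted p = 0.104, 0.065 and 0.0648).

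Sod2, the superoxide dismutase of mitochondria, ran from -0.82 on replicate 3 to 0.14 on replicate 4, with a median of -0.35. It was below 0 on 10 of 12 arrays. The fitted ratio was -0.35 ± 0.0903 (limma adjusted p = 0.0402), 1.27-fold lower, with pair means between -0.47 and -0.28. The call was kept only when replicate 1 or 4 was the array left out; with any of the 10 others left out the adjusted p lay above 0.05, up to 0.0779. It was also lost without pair B, C or D (adjusted p = 0.156, 0.136 and 0.137).

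Cat encodes catalase, which splits hydrogen peroxide into water and oxygen. It was above 0 on 12 of 12 arrays, from 0.17 on replicate 11 to 2.61 on replicate 1, with a median of 0.60. It rose by 0.78 on the log2 scale (SE 0.201, limma adjusted p = 0.0389), 1.72-fold, and its median level was 14.58 in KO and 13.77 in WT in log2 intensity. Its probe lies at chr2:103305290-103305349 of build mm7. The adjusted p rose to between 0.0535 and 0.0838 with replicate 2, 6, 8, 9 or 12 left out, while the ratio then lay between 0.74 and 0.80. Without pair A, B, C or D the adjusted p was 0.0803, 0.117, 0.106 and 0.106.

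Prdx1, a cytosolic peroxiredoxin that reduces peroxides with electrons from thioredoxin, ran from -0.10 on replicate 10 to 1.26 on replicate 3. Its median was 0.42 and 11 of 12 arrays were above 0. The fitted ratio was 0.45 ± 0.12 (limma adjusted p = 0.0464), 1.36-fold higher. Pairs A and B had means of 0.58 and 0.72, pairs C and D of -0.04 and 0.22. The call was kept only with replicate 9 or 10 left out; without any of the 10 others the adjusted p lay above 0.05, up to 0.0874. The adjusted p was 0.225, 0.3 and 0.114 without pair A, B and D.

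Of the 7 uncalled genes of this role, Gpx2 and Prdx6 had the largest ratios. Gpx2, the peroxidase of gut and airway epithelium, ran from -2.63 on replicate 7 to 1.61 on replicate 12 and was also above 0 on replicate 6, at 1.56. Its ratio of -1.05 ± 0.422 had a limma adjusted p of 0.163. Prdx6, a peroxiredoxin that uses glutathione and acts on surfactant phospholipids in alveolar type 2 cells, had a ratio of -0.54 ± 0.213 (limma adjusted p = 0.158). Its 4 probes did not give like values: the probe used and another gave -0.54 and -0.53, and the remaining ones -0.09 and 0.05. Prdx2, Prdx5 and Sod3 had ratios of 0.22, -0.41 and -0.09 (limma adjusted p = 0.122, 0.136 and 0.399), and Prdx2 was called with replicate 4 left out (0.29, adjusted p = 0.00557; range over its alternatives 0.00557 to 0.977). Sod1 and Gpx1 lay within 0.10 of 0 on the log2 scale.

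**Figure D3:**
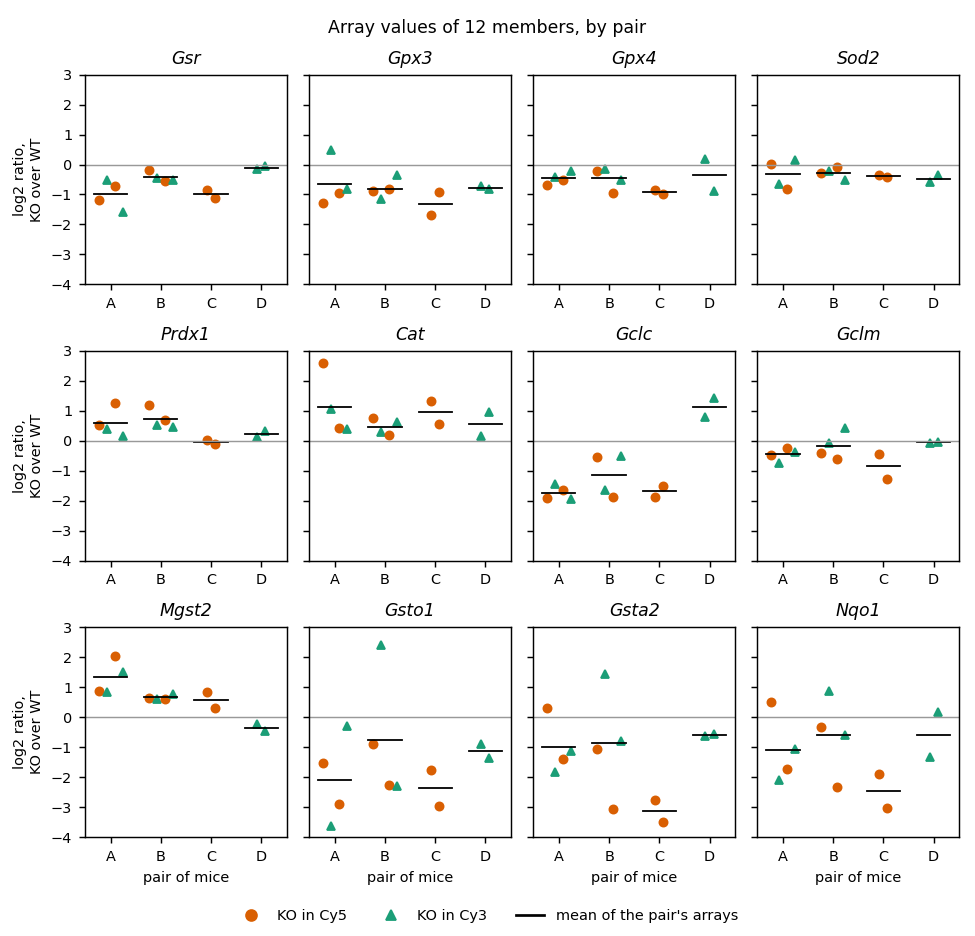
Log2 ratio of KO over WT on each array for 12 members, by pair; circles mark KO in Cy5, triangles KO in Cy3, and bars the mean of a pair's arrays. Gsr and Cat keep 1 sign on all 12 arrays, Gclc and Mgst2 have the opposite sign in pair D, and Gsto1 spans -2.29 to 2.41 within pair B.

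None of the 17 glutathione transferases was called in limma, and 4 (23.5%) had an unadjusted p under 0.05, beside 22.4% of all genes. Their ratios ran from -1.55 to 0.67 with a median of -0.04, and 9 were below 0. Gsto1, a transferase of the omega class that also reduces dehydroascorbate, had the largest ratio of all 43 members. Its values ran from -3.64 on replicate 2 to 2.41 on replicate 6, with a median of -1.65. Replicate 6 alone was above 0. The fitted ratio was -1.55 ± 0.459 (limma adjusted p = 0.0642), 2.92-fold lower, and -1.87 without replicate 6 (adjusted p = 0.0104; range over its alternatives 0.0104 to 0.796). Arrays of pair B, which share ages and sexes in the labels, gave -0.89, 2.41, -2.27 and -2.29.

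Gsta2, an alpha-class transferase induced by Nrf2, was above 0 on replicates 1 (0.31) and 6 (1.44) and below 0 on the other 10 arrays. Its lowest value was -3.49 on replicate 10. The ratio of -1.27 ± 0.379 had a limma adjusted p of 0.0649 and passed the threshold without replicate 1 (-1.49, adjusted p = 0.0281) or replicate 6 (-1.47, adjusted p = 0.0323), in a range of 0.0253 to 0.572 over its alternatives. Alpha-class genes are close copies of each other, and how far its probe reads other members of the class was not tested.

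Mgst2, a microsomal transferase that can also make leukotriene C4, was above 0 on 10 arrays. Its ratios were 0.88, 0.84, 2.05 and 1.52 in pair A, between 0.62 and 0.78 in pair B, and 0.84 and 0.29 in pair C. Both arrays of pair D were below 0, at -0.24 and -0.47. Over all arrays the ratio was 0.67 ± 0.19 (limma adjusted p = 0.0549), and with pair D left out it was 0.90 (adjusted p = 0.0225; range over its alternatives 0.0225 to 0.73). It also passed without replicate 11 or 12 alone. The F test between pairs gave an adjusted p of 0.226.

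Gstm2 ran from -1.05 to 2.65, with values of 1.91, 1.76 and 1.29 on replicates 3, 6 and 4, and had a ratio of 0.50 ± 0.341 (limma adjusted p = 0.436). Gstm1 and Gsta3 are named here because of their array values: on replicate 1 they reached 4.51 and 4.37, against highest values of 1.03 and 1.96 on the other 11 arrays. The second probe of each gave 2.61 and 3.19 on that array. Their fitted ratios were -0.24 ± 0.562 and 0.49 ± 0.439, with limma adjusted p of 0.858 and 0.577. The WT tumour had the lowest level of its group there: 12.97 for Gstm1 against a WT median of 16.60, and 10.41 for Gsta3 against 14.15. On the other arrays of pair A the WT level of Gstm1 was 16.79, 16.17 and 16.77, although the labels give these WT tumours the same age and sex. The mu and alpha classes are close copies within themselves, so single genes of these families are uncertain on these probes.

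Gstp1, Mgst3 and Gstt3 were next in order of p, at -0.35, -0.28 and -0.29 (limma adjusted p = 0.0953, 0.259 and 0.307). Gstp1, the pi-class transferase that is abundant in many tumours, was below 0 on 9 of 12 arrays and passed the threshold without replicate 1 (-0.42, adjusted p = 0.0406; range over its alternatives 0.0259 to 0.674). Gstm5 was above 0 on 11 of 12 arrays and at -1.94 on replicate 10, without which it was 0.61 (adjusted p = 0.0123; range 0.0123 to 0.979). The other 7 transferases, Gsta4, Gsto2, Gstt1, Gstt2, Gstz1, Gstk1 and Mgst1, had ratios between -0.16 and 0.24. Of 9 club cell markers 0 were called (median -0.01), with a summed level of 78100 to 407800 in KO and 94310 to 1449000 in WT; airway club cells are known for high transferase levels. None of these 9 was below background throughout, and their part in the transferase values was not tested.

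Among Nrf2, Keap1 and other inducible enzymes, 0 of 7 were called, the median ratio was -0.34 and 6 were below 0. Unadjusted limma p was under 0.05 for 4 of the 7, beside 22.4% of all genes. Nqo1, a quinone reductase and standard Nrf2 target, ran from -3.03 on replicate 10 to 0.87 on replicate 6. It was also above 0 on replicates 1 and 12. The ratio was -1.09 ± 0.354 (limma adjusted p = 0.0872), 2.13-fold lower, and -1.29 without replicate 1 (adjusted p = 0.0374; range over its alternatives 0.0351 to 0.647).

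Srxn1, sulfiredoxin, which repairs over-oxidized peroxiredoxins, was below 0 on 11 of 12 arrays. It ran from -2.22 on replicate 10 to 0.87 on replicate 12, and its ratio was -0.66 ± 0.223 (limma adjusted p = 0.0983). Its other 2 probes gave -0.38 and -0.41. Hmox1, the enzyme that degrades haem, and Ephx1, an epoxide hydrolase, had ratios of -0.45 and -0.34 (limma adjusted p = 0.063 and 0.241), and Hmox1 passed without replicate 5 or 11 (adjusted p = 0.0285 and 0.0409; range over its alternatives 0.0285 to 0.814).

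Nfe2l2 itself had a ratio above 0, at 0.20 ± 0.0786 (limma adjusted p = 0.159), with array values from -0.18 to 0.77 and 8 of 12 arrays above 0. It passed without replicate 11 (0.25, adjusted p = 0.0465; range over its alternatives 0.0465 to 0.801). Of its 4 probes, 3 gave 0.20 and the remaining one -0.27. Keap1 and Txnrd1, thioredoxin reductase, had ratios of -0.13 and -0.21 with array values from -1.22 to 0.88 and from -1.79 to 0.79. The mRNA level of Nrf2 does not measure its activity, which is set largely through protein stability.

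The 3 members of the pentose phosphate pathway, which supplies NADPH, were not called. Of these, 2 had an unadjusted limma p under 0.05, beside 22.4% of all genes. Taldo1, transaldolase of the branch of that pathway that makes no NADPH itself, ran from -1.18 on replicate 9 to 0.23 on replicate 11 and was below 0 on 9 arrays. Its ratio of -0.42 ± 0.119 had a limma adjusted p of 0.0539, and it passed without replicate 1 or 5 (adjusted p = 0.0396 and 0.0449; range over its alternatives 0.0243 to 0.506). Pgd, 6-phosphogluconate dehydrogenase, had -0.35 ± 0.106 (limma adjusted p = 0.0718), and a second probe of the gene was called in the test of single probes (-0.34, adjusted p = 0.0495). Without replicate 5 it was -0.39 (adjusted p = 0.0427; range over its alternatives 0.0427 to 0.824). G6pdx, the first enzyme of the pathway, had -0.08 ± 0.111 and lay at -0.97 and -0.76 on the arrays of pair C and at 0.27 and 0.60 on those of pair D. Malic enzyme 1, from the probe named Mod1, had 0.13 ± 0.181 with array values from -1.10 to 1.19 (limma adjusted p = 0.751).

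On every array, members lay on both sides of 0. The number below 0 was 35 of 43 on replicate 10, 31 on replicates 2, 3, 5, 7 and 9, and 28 and 25 on replicates 4 and 8. It was 21 on each array of pair D, 19 on replicate 1 and 18 on replicate 6. Replicate 10 held the lowest value of 14 members and replicate 1 the highest value of 11. The median of all genes lay between -0.03 and 0.02 on every array, while the median of the members ran from -0.57 on replicate 10 to 0.16 on replicate 6. Over all genes the array ratios correlated at 0.303 on average within pairs and 0.203 between pairs (mean Pearson r, given as a description over genes of these arrays).

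Of 118 other genes of the pathway listed by name, 108 were measured, and 10 fell and 1 rose, beside the 3.77% and 3.37% of all genes given above. Their median ratio was -0.07. Slc3a2 and Slc7a11, the chains of the cystine transporter, fell by 0.66 (SE 0.0883, limma adjusted p = 0.00215) and by 0.89 (SE 0.242, limma adjusted p = 0.0474). Slc3a2 was below 0 on 12 of 12 arrays, from -1.23 to -0.05. Slc7a11 ran from -2.55 on replicate 1 to 0.18 on replicate 6 and was above 0 on 3 arrays. It was dim, with a mean level of 6.89 in KO and 7.78 in WT in log2 intensity. It was well above background on 9 arrays for KO and on 12 for WT. Chac1, which breaks down glutathione inside cells, fell by 0.69 (SE 0.182, limma adjusted p = 0.0423), with -2.45 on replicate 1. With 1 array left out, Slc3a2 kept its call on all 12 occasions. Slc7a11 kept it only without replicate 3 or 5 (adjusted p from 0.0191 to 0.0981), and Chac1 only without replicate 1, 3 or 6 (0.0322 to 0.0781).

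Glrx, a glutaredoxin that uses glutathione to reduce protein thiols, fell by 0.78 (SE 0.131, limma adjusted p = 0.00625) and was below 0 on 11 arrays. Abcc5, an exporter of organic anions, fell by 0.69 (SE 0.162, limma adjusted p = 0.028) and was below 0 on 12 of 12. Fth1, the heavy chain of the iron store ferritin, and Blvrb, a biliverdin reductase, fell by 0.50 and 0.49 (limma adjusted p = 0.032 and 0.0402). Fth1 was lowest in pair D, at -1.29 and -1.41. The sestrins Sesn1 and Sesn2, which are stress-induced regulators of growth signalling, fell by 0.30 and 0.42 (limma adjusted p = 0.0265 and 0.0249). Sesn3, the other sestrin on the list, was not called. Its ratio was 0.605 (SE 0.169, limma adjusted p = 0.0527), and it was above 0 on 10 arrays. Esd, which hydrolyses S-formylglutathione, fell by 0.56 (limma adjusted p = 0.05 after rounding). Gpx7, a peroxidase of the endoplasmic reticulum that works without glutathione, rose by 0.71 (SE 0.137, limma adjusted p = 0.0125) and was above 0 on 12 of 12 arrays, from 0.07 to 1.45. Slc3a2, Slc7a11, Sesn1, Sesn2, Abcc5 and Esd have more than 1 probe, and the values given are from the brightest. Whether the other probes of these genes gave like values was not examined. The calls of Glrx and Gpx7 held with any single array left out. Sesn2 lost its call without replicate 9 (adjusted p = 0.0533), Sesn1 without replicate 7, 9 or 12 (up to 0.0582) and Abcc5 without replicate 7, 8 or 12 (up to 0.0588). Fth1 kept its call without replicate 3, 4, 5, 6 or 10, Blvrb without replicate 1, 4 or 5, and Esd without replicate 5, and the adjusted p of these 3 genes rose to 0.0681, 0.0853 and 0.0941 at most with another array left out.

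**Figure D4:**
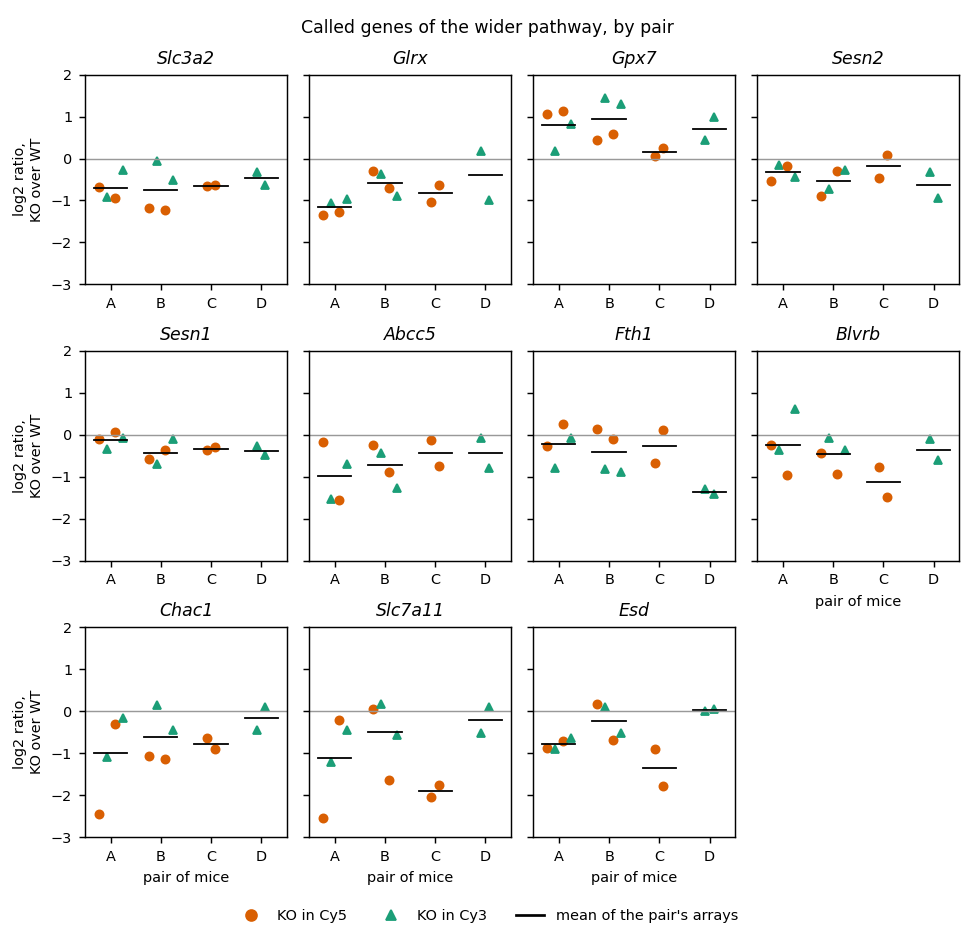
Log2 ratio of KO over WT on each array for the 11 called genes of the wider pathway list, by pair; circles mark KO in Cy5, triangles KO in Cy3, and bars the mean of a pair's arrays. Slc3a2 and Abcc5 lie below 0 and Gpx7 above 0 on all 12 arrays.

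The tumours also differed in markers of other cell types, and in bulk tissue fewer cells of a type and less RNA per cell cannot be told apart. All 10 endothelial markers fell, with a median ratio of -0.74. The sum of their linear intensities, in which bright markers weigh most, was 10700 to 15700 in KO and 18620 to 32380 in WT. These ranges did not overlap, and the share of all genes without overlap was not computed. The median of the endothelial markers was below 0 on 12 of 12 arrays, from -1.36 to -0.50, and none was below background. Of 9 markers of pericytes and smooth muscle 5 fell (median -0.43), and summed levels were 21900 to 30070 in KO and 27220 to 49090 in WT. Those that fell were Pdgfrb, Rgs5, Cspg4, Notch3 and Des. Acta2, Myh11, Cnn1 and Tagln were not called, with ratios of 0.16, -0.30, -0.03 and -0.28. Alveolar type 2 markers fell in 2 of 10, alveolar type 1 in 1 of 6, and red cell in 1 of 4. Fibroblast markers had 1 of 7 rise, platelet markers 1 of 5 rise and 1 fall, and 0 were called among 6 of lung epithelium (median 0.03), 7 of ciliated cells, 8 of macrophages, 5 of neutrophils, 7 of T and NK cells, and 7 of B and plasma cells. The part of these differences in the falls of Gsr, Gpx3, Gpx4 and Sod2 and the rises of Cat and Prdx1 was not tested.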

How the data were processed

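Total RNA of flash-frozen lung tumours was labelled with Cy3 or Cy5, and KO and WT RNA were hybridised together on 12 arrays, per the labels' protocols. Spots were read with Agilent Feature Extraction 10.1.1.1 on annotation build mm7, per the file headers. Spots have a mean intensity and a median background intensity, both deposited without normalization, and deposited flags (0 or 1) mark them as well above background or outlying. The series matrix holds the authors' log2 ratios, for which the submitters' processing notes name limma without version or settings. Those ratios correlated at 0.991 to 0.997 with the ones computed here on each array, were turned to KO over WT, and served as an alternative.

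Intensities were corrected with normexp (offset 50) and normalized within arrays by loess in limma 3.58.1 (R 4.3.3, statmod 1.5.0, data.table, version 1.17.8). Control and outlier spots had weight 0, and outlying local backgrounds took the median of their array and dye. Probes well above background for KO or WT on at least 6 of 12 arrays were kept (35561), and the brightest stood for its gene (20596 genes). Names came from RefSeq for 22951 probes and from the file for 11758, and 6465 probes had none. The model held KO over WT and dye, with the pair as a random block on the turned ratios (consensus correlation 0.079), then Benjamini-Hochberg adjustment. An F test compared the 4 pairs in a model with a coefficient per pair. Levels are log2 intensities after Aquantile scaling. The KO over WT model was tested on simulated data, and the F test and the alternatives were not. The number of arrays limits the precision. Genes were named by rule: called members, those with an absolute ratio of at least 0.5, and up to 3 further ones per role nearest the threshold. Of the wider list, called genes were named. Exceptions are Gstm1, Gsta3, Gstm5, G6pdx, Txnrd1, Keap1 and Sesn3, chosen after their values were seen. The members and lists were chosen with earlier results of these data known. Promoters were searched in RefSeq windows of GRCm38.p6.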

Additional observations from a re-analysis of the deposited data

How the results depend on the processing

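The 6 called members kept their direction in all 32 alternatives, while other members changed sign in 39 combinations of a member and a setting and Me1 in 3 settings. Members called numbered 14 without the pair block, 12 with the slide as the block and 15 with array weights. They numbered 3 with a variance trend and robust variances and 1 with median centring in place of loess. With median centring Gpx3 kept its call (limma adjusted p = 0.0379). Gsr, Gpx4, Sod2, Cat and Prdx1 then lost theirs (limma adjusted p = 0.151, 0.267, 0.528, 0.0993 and 0.163). With the variance trend Cat, Sod2 and Prdx1 lost theirs (limma adjusted p = 0.0659, 0.073 and 0.075). Sod2 also lost its call with the signals processed by Agilent (limma adjusted p = 0.0588). With each pair averaged to 1 value, or within slide 1, 2 or 3, 0 members were called. In those fits limma gave 17, 20, 14 and 16 of 43 members an unadjusted p under 0.05. The shares of all genes with such a p were 16.9%, 15.8%, 15.6% and 16.1%. Members called numbered 3, 0 and 3 without pair A, B and C, and 3 to 9 with 1 array left out (3 without replicate 2 or 8). All genes called numbered 2212, 1972, 1935, 359, 601 and 48 without the block, with the slide as the block, with array weights, median centring, the variance trend and pair means, and 363, 434, 741 and 746 without pairs A to D. Within slides they numbered 0, 1 and 0, and with 1 array left out 790 to 1579 (825, 790, 810 and 831 without replicates 3, 7, 9 and 12). With the outlying backgrounds as deposited, 59.7% of calls were higher in KO, against 47.2% in the reported fit; that share was 52.6% with median centring, 37.5% with pair means, and 34.2% and 41% without pair A and B. Fewer samples entered the fits within slides and without a pair; the cause of the other changes was not tested.

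Sign changes were to these ratios. With median centring G6pdx was 0.018, Gpx1 0.020 and Gsto2 0.0048. Without pair A Gstk1 was -0.053, Gstt1 -0.0020 and Sod1 -0.12, and without pair B Gstk1 was -0.0032 and Me1 -0.059. Without pair C G6pdx was 0.057, Gstm1 0.12 and Gstt1 -0.027, and without pair D Gsto2 was 0.034. Within slide 1 Gstm1 was 0.93, Gstz1 0.25, Me1 -0.11 and Prdx6 0.029. Within slide 2 G6pdx was 0.091, Gsto2 0.13, Gstt1 -0.077, Mgst1 -0.15, Mgst3 0.10, Sod1 -0.29 and Sod3 0.017. Within slide 3 Gsta3 was -0.032, Gstk1 -0.28, Gstm2 -0.39, Keap1 0.061 and Me1 -0.017. Pair means gave -0.0098 for Gstk1, the mean of a gene's probes 0.0100 for Gsto2, and array weights -0.075 for Gstt1 and 0.0011 for Keap1. With 1 array left out Gstk1 ran from -0.016 to 0.14, Gstm1 from -0.67 to 0.057, Gsto2 from -0.066 to 0.0059, Gstt1 from -0.085 to 0.073 and Sod1 from -0.020 to 0.16.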
